A study of Glycine max with 7 samples.

Results

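The sites described here are places in the soybean genome where the transcription factor GLYMA.06G314400 was found on chromatin and the transcription factor GLYMA.04G093300 was not. A site was a peak, that is a stretch enriched over background, that overlapped between both GLYMA.06G314400 libraries by 1 bp or more, with the overlapping peaks joined. Sites that overlapped a peak of either GLYMA.04G093300 library by 1 bp or more were left out. Of 39590 GLYMA.06G314400 sites, 20979 (53.0%) were left, and they are called GLYMA.06G314400-only sites. They were chosen by their peak calls, so their distance, width and strength are given as descriptions, without a test. The absence of a GLYMA.04G093300 peak means that none reached the q-value threshold of the deposited lists, 0.01, and not that the factor was absent.

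The study mapped both factors by chromatin immunoprecipitation and sequencing (ChIP-seq) in Glycine max of the Williams 82 genotype, with 2 libraries per factor. All libraries came from cotyledon-stage embryos taken out of seeds of 3.5 to 4.5 mm, untreated apart from crosslinking in 1% formaldehyde. Chromatin sheared to 100 to 500 bp was precipitated with 3 µg of an antibody to a peptide of GLYMA.06G314400 (replicates 2 and 3) or 2 µg of one to a peptide of GLYMA.04G093300 (replicates 1 and 2). A further 3 input libraries were not analysed here, and whole embryos were used, so the lists do not separate cell types. The GLYMA.06G314400 lists held 45324 and 50147 peaks and the GLYMA.04G093300 lists 50665 and 39721, with read depths unknown.

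The peak names call GLYMA.06G314400 AREB3. In Arabidopsis, AREB3 belongs to the bZIP factors that bind abscisic acid response elements, short promoter sequences through which the hormone abscisic acid acts on genes. In seeds of that species, factors of this family act during maturation, when the embryo stores protein and oil and becomes tolerant to drying. The names call GLYMA.04G093300 HB22, a name used for homeobox factors. Genes beside the sites and the sequences within them were not analysed here.

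Most of the excluded GLYMA.06G314400 sites met peaks of both GLYMA.04G093300 libraries. Of the 18611 excluded, 12177 overlapped peaks of both libraries, 4954 a peak of replicate 1 only and 1480 a peak of replicate 2 only. Counted peak by peak, 56.6% of the peaks in GLYMA.06G314400 replicate 2 and 54.7% of those in replicate 3 overlapped no GLYMA.04G093300 peak, a mean of 55.7% ± 1.38 (SD, n = 2). Peaks seen in a single GLYMA.06G314400 library, which cannot form a site, lacked a GLYMA.04G093300 peak in 77.7% of cases in replicate 2 (3973 of 5112) and in 59.8% in replicate 3 (6190 of 10349).

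The rule divided sites that differed by only a few bases in their distance to, or overlap with, a GLYMA.04G093300 peak. Just inside it were 4 GLYMA.06G314400-only sites that touched a GLYMA.04G093300 peak without sharing a base. The highest-ranked of them by the lower of its 2 percentiles of fold, Chr14:7883678-7884255, reached a replicate 2 fold of 11.6 and a replicate 3 fold of 11.4, where fold is the enrichment the authors' peak caller gave within that library. Its neighbouring GLYMA.04G093300 peak, in replicate 2, had a fold of 3.87, and the summits of the pair, their points of highest enrichment, were 485 bp apart. The next were Chr2:6959611-6960225, with folds of 9.61 and 14.4, and Chr16:4998376-4998788, with folds of 8.76 and 9.99. Just outside lay Chr18:743818-744263, with folds of 8.66 and 9.23, which shared 1 bp with a GLYMA.04G093300 peak and had its summit 316 bp away. Chr16:36042948-36043336 (folds 6.80 and 7.25) and Chr17:6363416-6363840 (folds 6.44 and 6.82) also shared 1 bp. Within 50 bp of the line, 250 sites fell inside the rule and 273 outside it.

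The strongest GLYMA.06G314400-only sites were strong in both replicates and were found near GLYMA.04G093300 peaks as well as far from them. The percentiles of fold behind the ranks were each taken within their own list. The first, Chr13:13161703-13162533, reached a replicate 2 fold of 63.2 and a replicate 3 fold of 66.3, and a −log10 q of 539 and 469. Its nearest GLYMA.04G093300 peak was 189 bp away, while the next GLYMA.06G314400 site was 121218 bp away. The second, Chr19:27647819-27648693, had folds of 60.9 and 66.1 and lay 55.9 kb from a GLYMA.04G093300 peak, with another GLYMA.06G314400 site 1011 bp away. The third, Chr18:19420816-19421666, had folds of 55.0 and 66.5 and lay 24.5 kb from a GLYMA.04G093300 peak. These 2 were the only sites of the highest 10 farther than 10 kb from a GLYMA.04G093300 peak.

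The rest of the highest 10 lay on chromosomes 5, 17, 14, 1, 7, 8 and 18. Chr5:7031474-7032397 had folds of 64.4 and 56.5 and lay 2300 bp from a GLYMA.04G093300 peak. Chr17:38255656-38256465 had folds of 54.8 and 56.4 and lay 1765 bp from one. Chr14:6718143-6719115, with folds of 53.8 and 57.8, lay 601 bp from one. The lowest-ranked of the 10, Chr18:2729737-2731162, had folds of 52.3 and 55.5 and a GLYMA.04G093300 peak 299 bp away. The other 3 were Chr1:8097131-8098269 (folds 61.4 and 56.1), Chr7:4113993-4114950 (53.0 and 56.7) and Chr8:21316451-21317409 (54.8 and 54.8). All 10 were wide, at 810 to 1426 bp, and their summits differed between replicates by 10 to 56 bp, with a median of 14 bp. The fold was higher in replicate 2 at 2 of the 10.

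Strength varied widely among the 20979 sites and was ordered much alike in the replicates. In replicate 2 the fold ran from 2.19 to 69.5 with a median of 6.74, and the middle 50% of sites lay between 4.71 and 11.4. In replicate 3 it ran from 2.30 to 69.99 with a median of 7.47, and the middle 50% lay between 5.19 and 12.5. Across the sites, Spearman's rho between replicates was 0.811 and Pearson's r of the log2 folds 0.859, given as descriptions over sites that share libraries. Over all GLYMA.06G314400 sites both were higher, at 0.843 and 0.872. The median GLYMA.06G314400-only site differed by 9.64 percentile points between the lists, against 9.22 over all GLYMA.06G314400 sites. The weakest peak in any GLYMA.06G314400-only site had a −log10 q of 2.29.

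A fold of 10 or more in both replicates was reached by 5428 GLYMA.06G314400-only sites, or 25.9%, against 30.8% of all GLYMA.06G314400 sites. At 20 or more there were 1579 (7.53%, against 9.68% of all sites), and at 30 or more 429 (2.04%, against 2.66%). At 50 or more there were 23 of the 44 sites that reached it (0.111% of all sites). The GLYMA.06G314400-only sites made up 44.6% of the sites with a fold of at least 10, 40.8% of those with at least 30 and 52.3% of those with at least 50, beside 53.0% overall. The last of these shares rests on 44 sites.

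**Figure D1:**
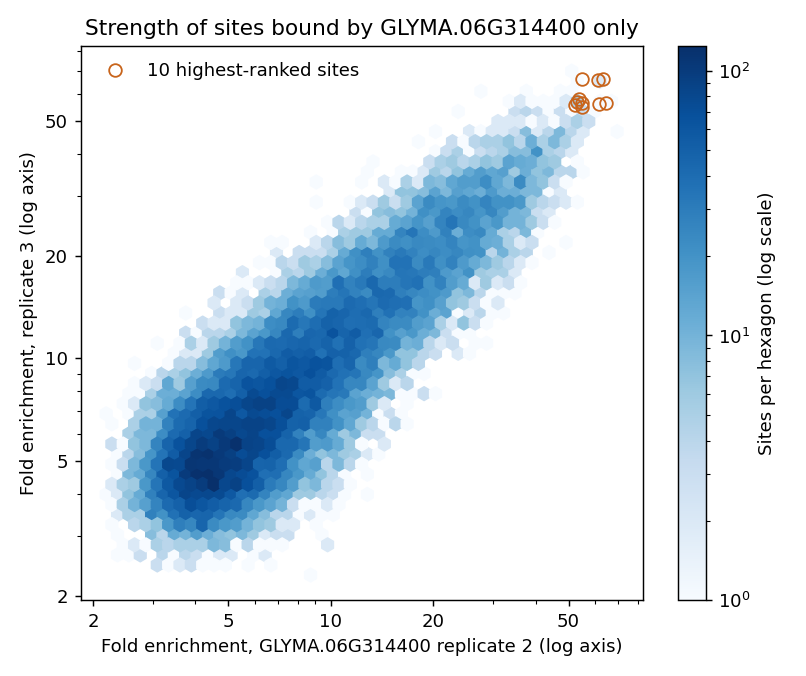
Fold enrichment of each of the 20979 GLYMA.06G314400-only sites in replicate 2 (horizontal, log axis) and replicate 3 (vertical, log axis), with colour for the number of sites per hexagon and circles for the 10 highest-ranked sites. The sites form 1 band along the diagonal, densest near a fold of 5, and the circled sites lie above 50 in both replicates.

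Summits of the replicates lay close together at GLYMA.06G314400-only sites, and closer at strong ones. A site forms only where peaks of both replicates overlap, so its width limits how far apart its summits can lie. The summits of the replicates lay a median of 21 bp apart, 82.4% within 50 bp and 95.9% within 100 bp, and 307 sites had identical summits. The corresponding shares within 100 bp were 93.4% at sites that overlapped a reproducible GLYMA.04G093300 site and 94.97% over all sites. Those groups were wider, with medians of 555 and 488 bp against 449 bp, so the shares are not compared at equal width. In the lowest 10% of all sites by rank the median summit distance of GLYMA.06G314400-only sites was 36.5 bp, and in the highest 10% it was 11 bp. More than 1 peak of a replicate was joined at 231 sites (1.10%), and no site held more than 3 of either.

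GLYMA.06G314400-only sites had a median width of 449 bp, with the middle 90% between 300 and 837 bp. Sites that overlapped a reproducible GLYMA.04G093300 site had a median of 555 bp, and 8.45% of them reached 1 kb against 2.16% of GLYMA.06G314400-only sites. Those on a GLYMA.04G093300 peak of a single library had a median of 517 bp and 4.64% at 1 kb or more, and all GLYMA.06G314400 sites together 488 bp and 4.52%. The peaks within GLYMA.06G314400-only sites had a median width of 395 bp in replicate 2 and 421 bp in replicate 3, or 408 ± 18.4 bp (SD, n = 2). The widest site, Chr17:15255933-15258304, spanned 2372 bp with a single peak in each library and folds of 35.5 and 31.6. It was followed by Chr5:26239327-26241562 with 2236 bp (folds 45.7 and 47.0). The third, Chr13:1066674-1068886 with 2213 bp, joined 3 peaks of replicate 2 to 1 of replicate 3 and had folds of 25.4 and 26.3.

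Both strong and wide GLYMA.06G314400 sites were less often GLYMA.06G314400-only, and width showed the larger range. The share was 70.6% in the narrowest 10% of sites and 28.8% in the widest 10%. By rank it was 56.8% in the lowest 10%, 59.5% in the third 10% from the bottom and 41.0% in the highest 10%. A wide site has more bases in which an overlap can fall, so the rule itself uses width. Within each of the 10 groups of similar width the order by rank was the opposite. The sites ranked above the median of their group were GLYMA.06G314400-only more often than those below it, by 72.9% against 68.3% in the narrowest group and 60.2% against 52.1% in the fifth. In the widest group the shares were 29.8% and 27.7%. At equal rank GLYMA.06G314400-only sites were narrower, with a median of 357 against 405 bp in the lowest 10% and 708 against 795 bp in the highest, compared with sites that overlapped a reproducible GLYMA.04G093300 site.

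**Figure D2:**
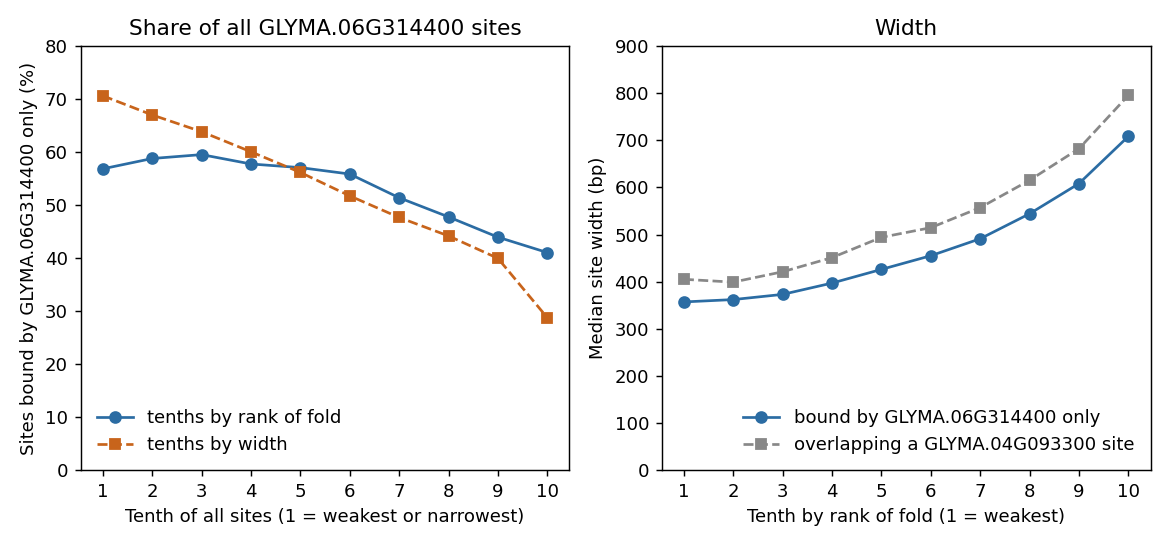
Left, the share of all GLYMA.06G314400 sites that were GLYMA.06G314400-only (%) in 10 groups by rank of fold (circles) and in 10 groups by width (squares); right, the median width (bp) by rank of fold for GLYMA.06G314400-only sites and for sites overlapping a reproducible GLYMA.04G093300 site. The share falls from 70.6% to 28.8% with width and from 56.8% to 41.0% with rank, and GLYMA.06G314400-only sites are the narrower class in every group by rank.

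Most GLYMA.06G314400-only sites had a GLYMA.04G093300 peak within 10 kb, but such peaks were frequent on every chromosome. The median chromosome held 45.7 GLYMA.04G093300 peaks per Mb (mean of the libraries), while the distances use both lists pooled. This density is not even along a chromosome's length. With chromosomes cut into 10 equal parts, 11.3% and 12.1% of sites in the end parts were more than 10 kb away, against 42.6% in the sixth. No share was computed for other positions of the genome. Whether these sites lay nearer to GLYMA.04G093300 peaks than other positions do was therefore not tested. The median distance from the edge of a site to the nearest edge of a GLYMA.04G093300 peak was 2877.5 bp, and the middle 50% of distances lay between 973 and 7754.5 bp. A GLYMA.04G093300 peak lay within 1 kb of 5351 sites (25.5%) and within 10 kb of 16884 (80.5%). A further 4080 sites (19.4%) were more than 10 kb away, 759 (3.62%) more than 50 kb and 345 (1.64%) more than 100 kb. For 15 sites, on 13 unplaced scaffolds, there was no GLYMA.04G093300 peak on the same scaffold. Counted in steps of 100 bp, the number of sites was 483 at 0 to 100 bp, was highest at 300 to 400 bp with 631, and was 246 at 1900 to 2000 bp. With GLYMA.04G093300 replicate 1 left out, 25933 sites qualified and their median distance was 4374 bp. When only a GLYMA.04G093300 summit within 100 bp of the site's summit excluded it, 30022 sites qualified with a median distance of 1149 bp and a median spacing of 10774.5 bp.

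**Figure D3:**
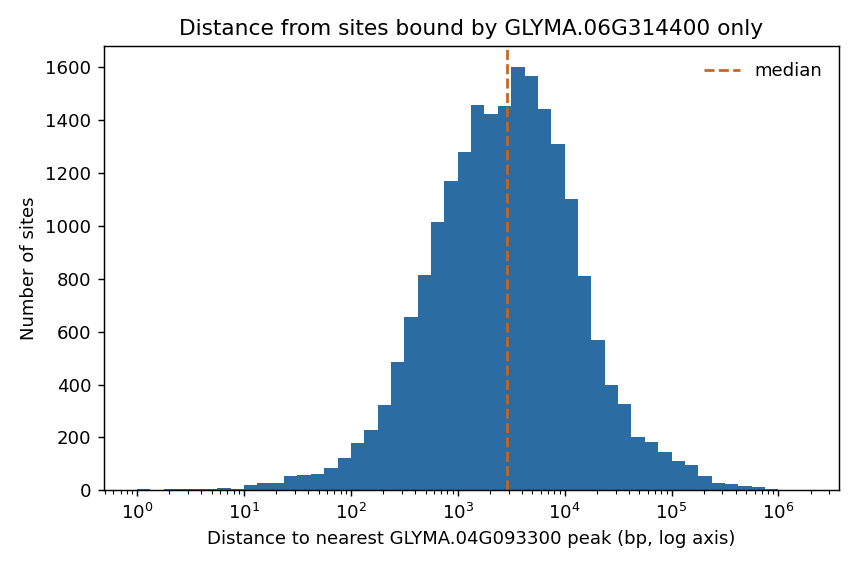
Number of GLYMA.06G314400-only sites (vertical) by distance from the site's edge to the nearest GLYMA.04G093300 peak in bp (horizontal, log axis), with the median of 2877.5 bp as a dashed line. The distances form a single hump between about 100 bp and 100 kb; the 4 sites that touch a peak and the 15 with no peak on their scaffold are not drawn.

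Each GLYMA.04G093300 library gave a longer distance on its own, with a median of 3410 bp to replicate 1 and 4753 bp to replicate 2, the shorter list. Neither could be shorter, since the distance above is to the nearest peak of both lists pooled. The nearest GLYMA.06G314400 site of any kind lay a median of 3752 bp away, and the nearest other GLYMA.06G314400-only site 7767 bp away. These targets numbered 39590 and 20979, against 50665 and 39721 GLYMA.04G093300 peaks in the pooled lists, reproducible or not. The distances to the 2 factors are therefore not like for like. The nearest GLYMA.04G093300 peak belonged to a reproducible GLYMA.04G093300 site in 51.3% of cases, while 70.3% of all GLYMA.04G093300 peaks did. It overlapped a GLYMA.06G314400 site in 32.6% of cases, against 35.6% of all GLYMA.04G093300 peaks. The shares of all peaks are counted over both lists pooled. A reproducible GLYMA.04G093300 site enters them with peaks of both libraries, but is nearest to a site through a single peak only. Neither pair of shares is therefore a like comparison, and no preference was tested. The nearest peak lay towards the lower coordinate for 50.1% of the sites.

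Sites farther from GLYMA.04G093300 had slightly higher folds, and those beyond 10 kb lay more often in the middle of the chromosomes. Between the 1006 sites nearer than 200 bp and the 759 sites at 50 kb or more, the median replicate 2 fold was 6.52 and 7.34, and the median replicate 3 fold 7.26 and 7.80, and both rose at each of the 5 steps of distance between these groups. The median width was 462 and 449 bp, and the highest 10% of all sites by rank supplied 6.86% and 8.30% of these sites. The share lying in the middle 50% of the chromosome span was 17.6% and 68.7%. It lay between 17.6% and 20.7% in the 4 groups up to 10 kb, which held 80.5% of the sites, and was 33.0% at 10 to 50 kb.

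The most remote sites were of ordinary strength. The farthest, Chr19:16056869-16057314, lay 1484 kb from any GLYMA.04G093300 peak and had folds of 11.5 and 10.7 with summits 6 bp apart. Chr19:16365536-16365846, at 1400 kb, had folds of 4.13 and 4.62, and Chr17:22214980-22215310, at 988 kb, had folds of 5.16 and 5.50. Strong sites far from GLYMA.04G093300 also occurred. Of the 1625 GLYMA.06G314400-only sites in the highest 10% by rank, 63 were more than 50 kb away. The 2 highest-ranked of these were the second of all GLYMA.06G314400-only sites, on chromosome 19, and Chr5:8660195-8660950, 176 kb away with folds of 57.3 and 48.7. The next, Chr14:38858960-38860650, lay 185 kb away with folds of 54.1 and 45.1. Chr5:13953787-13954685, 733 kb from a GLYMA.04G093300 peak, followed with 46.8 and 44.8. These last 3 sites were named after their values were seen.

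GLYMA.06G314400-only sites were found on all 20 chromosomes in similar proportion. The 20 chromosomes held 20865 of them and 26 unplaced scaffolds held 114. Their number ran from 766 on chromosome 16 to 1452 on chromosome 13, and their density from 17.7 per Mb on chromosome 1 to 31.7 per Mb on chromosome 13, taking the highest peak end as the length of a chromosome. The share of GLYMA.06G314400 sites that were GLYMA.06G314400-only ran from 49.1% on chromosome 11 to 57.2% on chromosome 16. Chromosomes 11, 17 and 13, with shares of 49.1%, 49.5% and 50.9%, had 68.0, 63.3 and 72.8 GLYMA.04G093300 peaks per Mb (mean of the 2 libraries). Chromosomes 16, 15 and 14, with shares of 57.2%, 57.2% and 57.2%, had 37.6, 38.2 and 35.3. The density of GLYMA.06G314400 sites of any kind differed likewise, at 56.7, 53.4 and 62.2 per Mb on the former 3 and 35.3, 35.0 and 33.0 on the latter. Over the 20 chromosomes, Spearman's rho of the share was −0.734 with GLYMA.04G093300 peaks per Mb and −0.708 with GLYMA.06G314400 sites per Mb, given as descriptions. Some chromosomes departed from this order. Chromosome 1, with 35.9 GLYMA.04G093300 peaks per Mb, had a share of 53.9%, and chromosome 20, with 39.97 per Mb, one of 51.8%. The rule uses those same peaks.

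Median width and fold differed less between chromosomes than distance and spacing did. The median width ran from 438 bp on chromosome 20 to 459 bp on chromosome 17, and the median fold from 6.42 to 7.18 in replicate 2 and from 7.25 to 7.94 in replicate 3. The median distance to a GLYMA.04G093300 peak ran from 2334 bp on chromosome 17 to 3673.5 bp on chromosome 16, and the median spacing of the sites from 15088 bp on chromosome 13 to 20595 bp on chromosome 18. The highest-ranked site of a chromosome had folds between 41.3 and 64.4 in replicate 2 and between 39.8 and 66.5 in replicate 3, lowest in both on chromosome 4. The share of GLYMA.06G314400-only sites that ranked in the highest 10% of all sites was 6.09% on chromosome 15 and 10.3% on chromosome 14.

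Along the chromosomes, GLYMA.06G314400-only sites thinned out towards the middle together with all GLYMA.06G314400 sites, and their distance to GLYMA.04G093300 grew. With the 20 chromosomes pooled and cut into 10 equal parts, the end parts held 3873 and 4015 GLYMA.06G314400-only sites and the sixth part 603, among 7714, 7804 and 1000 GLYMA.06G314400 sites of any kind. Their share was 50.2% and 51.4% in the end parts and 60.3% in the sixth. The median distance to a GLYMA.04G093300 peak was 2226 and 2326 bp in the end parts and 6415 bp in the sixth. The median distance between a site and the nearest other GLYMA.06G314400-only site was 6372 and 6694 bp at the ends and 14297 bp in the sixth part. In replicate 2 the median fold was 6.70 and 6.595 at the ends and 7.39 in the sixth part, and in replicate 3 it was 7.45, 7.35 and 7.91. The sixth part thus had the longest median distance and the highest median folds, and the fifth, with folds of 7.13 and 7.58, the next highest folds. Median widths in the 10 parts stayed between 439 and 460 bp.

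**Figure D4:**
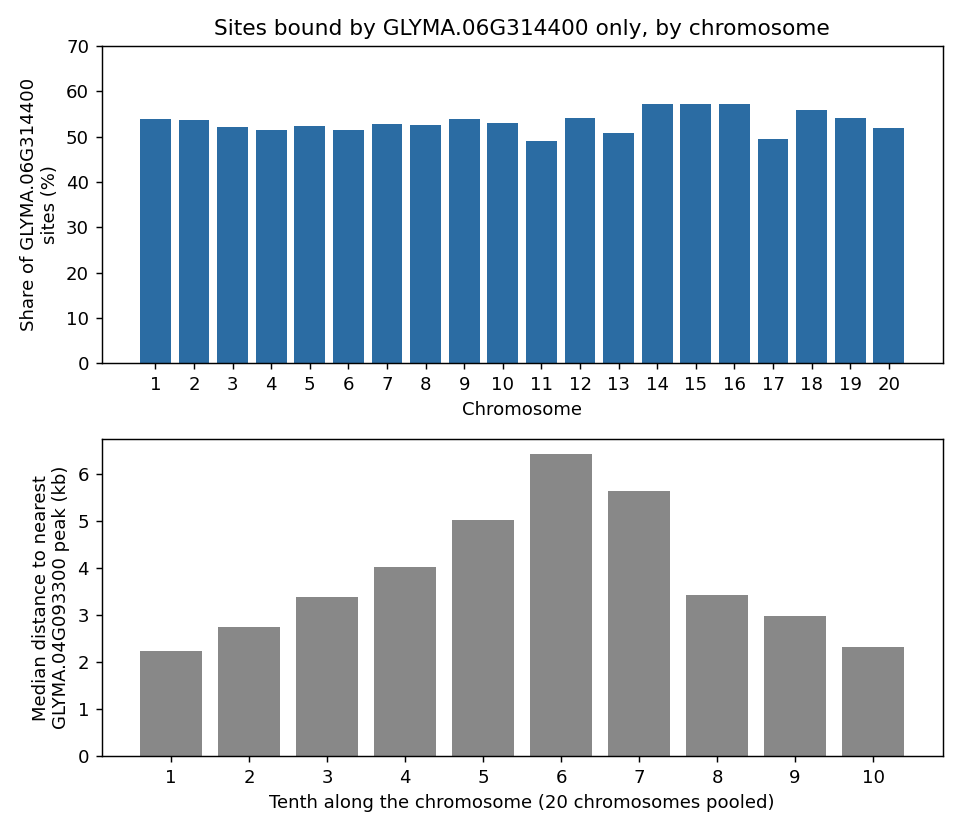
Top, bars for the share of GLYMA.06G314400 sites that were GLYMA.06G314400-only (%) on each chromosome; bottom, bars for the median distance (kb) from GLYMA.06G314400-only sites to the nearest GLYMA.04G093300 peak in 10 equal parts of the chromosomes, pooled. The shares lie between 49.1% and 57.2%, while the distance is longest in the sixth part.

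Neighbouring GLYMA.06G314400-only sites were a median of 17534 bp apart from end to start, and the middle 50% of these spacings lay between 6086 and 40642 bp. Spacings under 1 kb numbered 1277 (6.10%) and spacings over 1 Mb 60, the longest being 3633959 bp. Among all GLYMA.06G314400 sites, which are more numerous, the median spacing was 7509 bp, 12.7% of spacings were under 1 kb, 41 were over 1 Mb, and the longest was the same. The closest pair lay 17 bp apart at Chr19:9728471-9728971 and Chr19:9728989-9729406, with folds of 3.37 and 4.47 at the first site and 4.21 and 2.81 at the second. The other 2 closest pairs were 20 bp apart on chromosome 19, with folds of 8.95 and 4.90 beside 17.8 and 22.8, and 21 bp apart on chromosome 20, with folds of 8.71 and 13.4 beside 7.70 and 6.83. Summits within these 3 pairs were 496 to 553 bp apart. Of 957 windows of 1 Mb, 39 held no GLYMA.06G314400-only site and the median window held 16. The fullest windows, on chromosomes 3 and 4, held 70 each, among 122 and 119 GLYMA.06G314400 sites.

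Going along a chromosome from 1 GLYMA.06G314400 site to the next, a GLYMA.06G314400-only site was followed by another in 56.0% of cases. Any other GLYMA.06G314400 site was followed by a GLYMA.06G314400-only one in 49.6%. The share over all GLYMA.06G314400 sites was 53.0%. The sites fell into 9251 runs of consecutive GLYMA.06G314400-only sites, of which 4279 were single sites. Runs of 5 or more numbered 924 and held 6041 sites (28.8%), and runs of 10 or more numbered 78 and held 923. With a share of 53.0%, runs also arise without any grouping of the sites. How many that share alone would give was not computed, so the counts are not read as clustering.

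The 3 longest runs differed in how GLYMA.04G093300 was placed among them. The longest, Chr10:8593728-9793221, held 33 sites over 1199 kb, with folds of 3.13 to 31.7 in replicate 2 and 2.68 to 40.3 in replicate 3. It was interleaved with 57 GLYMA.04G093300 peaks (34 of replicate 1 and 23 of replicate 2), and the median site was 4205 bp from one. The next, Chr19:27141654-27702269, held 23 sites over 561 kb with 9 GLYMA.04G093300 peaks, and its median site was 34.4 kb from one. The third, Chr16:4972901-5317335, held 18 sites over 344 kb with 26 GLYMA.04G093300 peaks and had median folds of 4.99 and 5.33.

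The run on chromosome 19 held several of the strongest sites. Its median fold was 9.93 in replicate 2 and 10.3 in replicate 3, and 6 of its 23 sites ranked in the highest 10% of all sites. In the run on chromosome 10 it was 1 of 33, and among all GLYMA.06G314400-only sites 1625 of 20979. Besides Chr19:27647819-27648693, described above, the 6 included Chr19:27646138-27646807 with folds of 41.0 and 40.7, Chr19:27582239-27582951 with 43.0 and 37.9, and Chr19:27603237-27603917 with 36.2 and 54.0. The remaining 2 were Chr19:27579438-27581209, with folds of 31.9 and 27.8, and Chr19:27606797-27607526, with 24.7 and 27.7. All 6 lay more than 50 kb from a GLYMA.04G093300 peak. The 9 GLYMA.04G093300 peaks in the span had folds of 2.24 to 6.32.

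**Figure D5:**
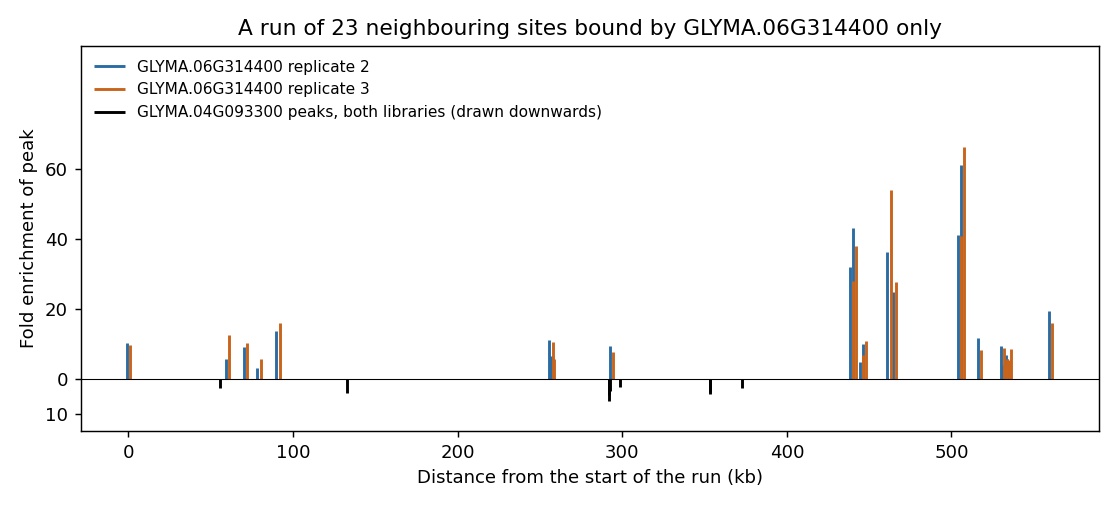
The run of 23 neighbouring GLYMA.06G314400-only sites on chromosome 19, with the distance from its start (kb) on the horizontal axis and the fold of each site upwards for replicates 2 and 3 (lines drawn 1 kb to either side of the summit) and of each GLYMA.04G093300 peak downwards. The 6 sites with a fold above 20 in both replicates stand together in the right part, where no GLYMA.04G093300 peak is drawn.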

How the data were processed

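Reads were aligned with Bowtie 0.12.7 and peaks called with MACS3, per the submitters' processing notes; their settings, the control library and the genome build are not given in the sources used. Coordinates are those of the deposited lists, written from 1. Each library has its own list. The authors deposited for each peak a fold (a ratio within that library), −log10 values of p and q, a summit, and a score that was not used for any result. No list holds read counts, so depth is unknown. Names inside the lists number the replicates differently from the labels, which were followed.

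The overlap arithmetic was checked on simulated intervals, where all 2600 of the planted GLYMA.06G314400-only sites among 5000 were recovered. Both simulated replicates held the same peaks at a fixed shift. The check therefore says nothing about peak calling or about missed GLYMA.04G093300 peaks. No test compares libraries, since an exact permutation of 2 and 2 cannot give a two-sided p below 0.333. Sites were named by fixed rules: the 10 highest by rank, and the 3 farthest, widest, closest and nearest to the rule's line, and the 3 longest runs. Strong sites far from GLYMA.04G093300, single sites within a run and other values of single chromosomes were picked after they were seen. The members, classes and rules were chosen with earlier results of these data known. Alternatives were a q of 1e-05, an overlap of 50%, a margin of 1 kb, summits within 100 bp and leaving out each library. The software was Python 3.11.15 with pandas 2.3.3, numpy 2.4.6, scipy 1.17.1 and, for figures, matplotlib 3.10.9.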

Additional observations from a re-analysis of the deposited data

How the results depend on the processing

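Values are compared with the SD of the same quantity between the 2 GLYMA.06G314400 libraries, and counts with a change of 1.5 times. The median summit distance has no such SD. It was compared with a binomial interval of its median over the sites, which treats sites as independent and says nothing about spread between libraries. Of 68 comparisons, 35 moved beyond their limit and 33 did not. The SD was 1.38 percentage points for the share and 97.6 bp for the median distance. The share moved under every alternative except the overlap of 50%. The median distance moved under all but that one and leaving out GLYMA.06G314400 replicate 3. The number of GLYMA.06G314400-only sites, 20979, stayed within the wider limit of 1.5 times under all 8 alternatives. The median summit distance between replicates was 20 or 21 bp in the 6 that give one. With a q of 1e-05 or lower in all lists there were 21861 sites, 57.0% of all, at a median distance of 3380 bp, 22.7% of them beyond 10 kb, with median folds of 6.98 and 7.72. Sites at least 1 kb from every GLYMA.04G093300 peak numbered 15628, 39.5% of all, with a median distance of 4693 bp, 26.1% beyond 10 kb and a spacing of 24768 bp. These follow in part from the margin itself. When only a GLYMA.04G093300 summit within 100 bp excluded a site, 30022 or 75.8% remained, with a median distance of 1149 bp, 13.6% beyond 10 kb, a spacing of 10774.5 bp, a width of 481 bp and folds of 7.03 and 8.00. An overlap of 50% between replicates moved no value beyond its limit. With 1 of the 4 libraries left out at a time there were 22459 to 27418 sites or peaks, a share of 54.7% to 65.5%, a median distance of 2746 to 4374 bp and 18.9% to 28.2% beyond 10 kb. The spacing was then 12721 to 16263 bp, the width 371 to 461 bp, the fold 5.92 to 6.86 in replicate 2 and 6.10 to 7.70 in replicate 3. The highest share and distance, 65.5% and 4374 bp, came without GLYMA.04G093300 replicate 1, the longer list, and that distance was 1.52 times the reported one. Without a GLYMA.06G314400 library, unjoined peaks stand in place of sites and are narrower by construction. Leaving out a GLYMA.04G093300 list can only add sites, and can only lengthen the distance of a given site. The cause of the other moves was not tested. The alternatives for motifs and gene starts were not run, since no genome or annotation of the files' build was used. No paired analysis was possible because the factors share only 1 replicate number and no result comes from a test. Depth is unknown, so whether GLYMA.04G093300 enrichment below the threshold was present at these sites was not detectable from the lists.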
